A study of Mus musculus with 8 samples.

Results

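The Slit-Robo and netrin-Unc5 axon guidance genes were followed in the developing dental pulp (DP) of the mouse first molar. The list held 10 genes by name, namely the ligands *Slit2*, *Slit3*, *Ntn1* and *Ntn4* and the receptors *Robo1*, *Robo2*, *Robo4*, *Unc5b*, *Unc5c* and *Neo1*. Each was looked up by its Ensembl identifier in the table of 12148 genes, and 8 were found; the netrins *Ntn1* and *Ntn4* were not analysed here, so the netrin side of the list is represented by receptors alone. DP was taken from the first molars of C57BL/6J mice at postnatal day 7 (P7), with the pulp of the left and right tooth pooled. The 4 control libraries came from Osterix-Cre mice, which carry Cre recombinase under the promoter of Osterix, active in odontoblasts and other cells of the DP mesenchyme. The 4 *Tgfbr2cko* libraries came from Osterix-Cre:Tgfbr2f/f mice, in which the same recombinase, carried by the controls too, removes loxP-flanked *Tgfbr2*, the type II receptor of transforming growth factor β (TGFβ). Cells of the pulp outside this lineage, such as those of vessels and axons, keep the gene. Values are log2 CPM, read counts scaled to the size of the library, and the genotypes were compared with limma-trend in every gene of the table, with Benjamini-Hochberg adjustment across all 12148. Each library goes by its label number, Osterix-Cre 49 to 52 and *Tgfbr2cko* 53 to 56.

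Slits are secreted proteins that repel growing axons through Robo receptors on the growth cone, with heparan sulfate proteoglycans holding ligand and receptor together. Netrins attract axons through Dcc and its relative neogenin and repel them through the Unc5 receptors. The same receptors are used outside the nervous system: Robo4 and Unc5b are found on endothelial cells, and neogenin also binds the repulsive guidance molecules. In the tooth, sensory axons of the trigeminal ganglion enter the pulp after birth while the odontoblasts lay down dentin. The cell bodies of these neurons lie outside the tooth, so the receptor transcripts of their growth cones are mostly made outside the tissue sampled.

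Between 8682872 and 13539670 reads per library were counted on the 12148 genes, so 1 read corresponded to 0.0739 to 0.115 CPM. The deleted gene *Tgfbr2* had log2 values of 7.16, 7.62, 7.64 and 7.52 in the controls against 7.02, 7.00, 7.16 and 7.61 in the mutants (log2 fold change -0.29, SE 0.17, adjusted p = 0.790, limma; exact permutation p = 0.143). The value in the library labelled *Tgfbr2cko* 56 thus lay within the control range, and that of *Tgfbr2cko* 55 was level with the lowest control. Reads were counted over the whole gene, and cells outside the lineage keep it, so these values do not measure the extent of the deletion. The library labelled *Tgfbr2cko* 56 also stood apart in its enamel transcripts: *Amelx* and *Ambn* took 18.5% of its reads and 0.326% to 2.74% of the reads of the other 7. Values without this library are given beside the guidance genes and marker lists that it moved most. As a check of the labelled tissue, all 7 odontoblast markers were read in every library, with a summed level of 47723 to 101820 CPM in the controls against 29360 to 62931 CPM in the mutants. The library titles also carry a number, 4, 4, 2 and 5 for Osterix-Cre 49 to 52 and 3, 2, 2 and 3 for *Tgfbr2cko* 53 to 56, whose meaning is not given in the sources used here. Libraries that repeat a number within a genotype may share an animal or litter, so n = 4 counts libraries and p-values measure the spread between them. With such libraries averaged, 3 controls against 2 mutants, *Unc5b* was again the 1 guidance gene with an unadjusted p under 0.05, at a log2 fold change of -0.41 (adjusted p = 0.449, limma), and none had an adjusted p under 0.05.

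To show the DNA in front of the genes with the largest mean differences in each direction, the 250 bases before the start of *Slit2* and of *Unc5b* were taken from RefSeq on GRCm38. The windows are chr5:47982905-47983154 on the forward strand for *Slit2*, whose last bases lie inside the GENCODE gene model, and chr10:60831582-60831831 on the reverse strand for *Unc5b*. Capitals mark GTCTG, which is CAGAC on the other strand, the letters of a Smad-binding element; Smads are the transcription factors that TGFβ receptors activate.
Slit2: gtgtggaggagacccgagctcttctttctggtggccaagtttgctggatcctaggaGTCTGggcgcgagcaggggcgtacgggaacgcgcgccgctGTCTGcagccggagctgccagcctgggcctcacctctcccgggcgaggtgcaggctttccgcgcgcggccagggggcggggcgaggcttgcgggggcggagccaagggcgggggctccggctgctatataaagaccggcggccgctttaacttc
Unc5b: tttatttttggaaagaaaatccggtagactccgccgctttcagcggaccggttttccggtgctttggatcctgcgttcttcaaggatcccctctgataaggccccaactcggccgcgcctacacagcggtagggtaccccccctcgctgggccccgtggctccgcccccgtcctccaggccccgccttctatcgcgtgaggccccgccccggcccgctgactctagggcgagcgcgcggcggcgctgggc
The *Slit2* window held GTCTG at 2 positions and the *Unc5b* window held neither CAGAC nor GTCTG. All 8 genes were matched to RefSeq starts, in 10 windows, and 5 of them had a match in 1 window each, while *Unc5b*, *Unc5c* and *Neo1* had none. Of 32851 RefSeq promoters of the same length, 42.2% held the motif on either strand, to be read beside 5 of the 10 windows. *Robo2* has 3 of these windows, and its match lies in a window whose start is not that of a GENCODE transcript. A match is a stretch of letters, and binding was not measured.

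None of the 8 genes was altered by the thresholds of the study, an unadjusted p under 0.05 with a change of at least 1.5-fold, which 5.77% of all genes passed. None had an adjusted p under 0.05 in limma-trend, nor with voom weights, against 0.947% of all genes. Only *Unc5b*, with lower values in the mutants, had an unadjusted p under 0.05, which is 1 of 8 beside 8.38% of all genes in either direction and 5.08% with lower values in the mutants. It was also the 1 gene of the list whose genotypes did not overlap, a separation seen in 5.27% of all genes, and in 3.14% with the mutants lower. The mean was higher in *Tgfbr2cko* for 5 genes and lower for 3, and the median log2 fold change of the 8 was 0.08, beside -0.01 over all genes. For *Slit3* and *Robo1* the 95% interval of the log2 fold change lay within 1.5-fold in both directions, as it did for 48.2% of all genes; for the other 6 it reached past 1.5-fold, so a change of that size is not shown to be absent.

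**Figure D1:**
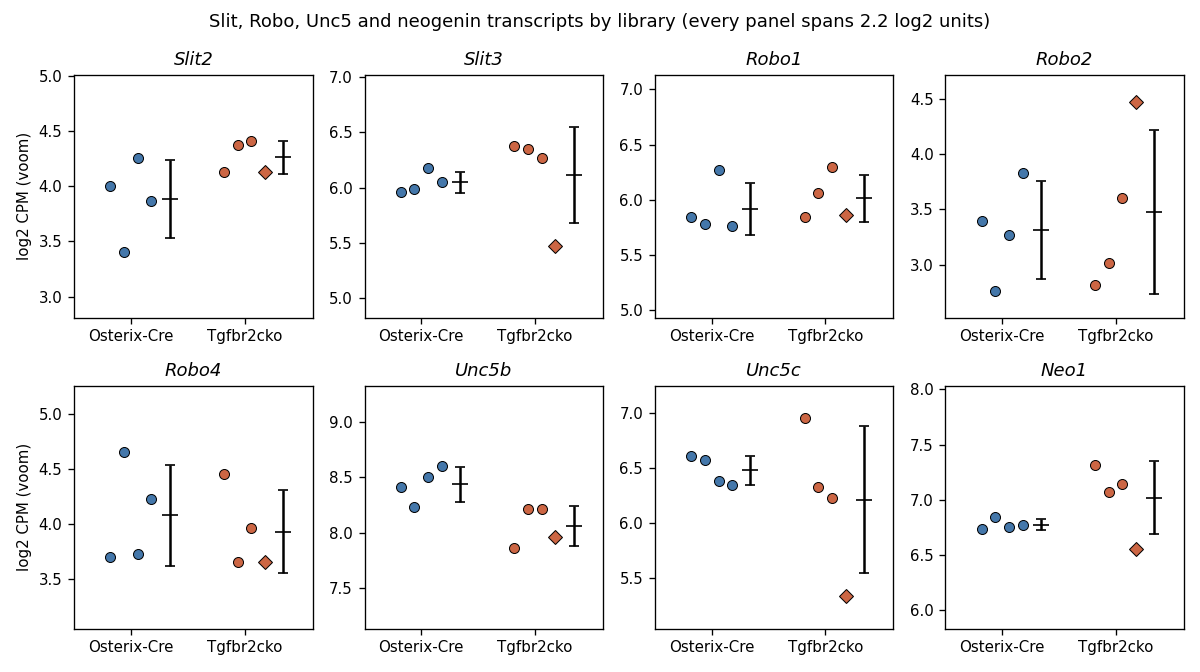
Log2 CPM of each guidance gene (vertical axis) in the 4 Osterix-Cre and 4 Tgfbr2cko libraries (horizontal axis), with 1 point per library, the diamond for the library labelled Tgfbr2cko 56, and bars for mean ± SD. Unc5b is the panel without overlap between the genotypes, and the diamond is the lowest mutant point for Slit2, Slit3, Unc5c and Neo1 and the highest for Robo2.

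Of the ligands, *Slit2* (ENSMUSG00000031558.15, chromosome 5, 47983138 to 48307733, forward strand) is a secreted repellent that also guides vessels. Its log2 values were 4.01, 3.41, 4.25 and 3.87 in the controls against 4.13, 4.37, 4.41 and 4.13 in the mutants, from 102 to 254 reads. Mutant libraries 54 and 55 lay above every control, and the other two lay between the highest and second highest control. The means were 3.88 ± 0.36 and 4.26 ± 0.15 (SD, n = 4 each), a log2 fold change of 0.38 (SE 0.21, 95% interval -0.07 to 0.82). The difference did not pass the test (p = 0.0934, adjusted p = 0.729, limma; exact permutation p = 0.114). Without Osterix-Cre 51, the highest control, it was 0.50, with an unadjusted p under 0.05 and an adjusted p of 0.626 (limma), and without Osterix-Cre 50, the lowest control, it was 0.22, with an unadjusted p above 0.05.

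*Slit3* (ENSMUSG00000056427.10, chromosome 11, 35121224 to 35708507, forward strand) encodes another Slit, expressed in many mesenchymal tissues. The controls lay close together, at 5.96, 5.99, 6.18 and 6.05, and the mutants had 6.37, 6.35, 6.26 and 5.47, from 600 to 999 reads. Mutants 53, 54 and 55 were above all controls, whereas the library labelled *Tgfbr2cko* 56 was below all of them. The log2 fold change was 0.07 (SE 0.19, 95% interval -0.35 to 0.49; p = 0.735, adjusted p = 0.998, limma; exact permutation p = 0.886). It was 0.28 without that library (adjusted p = 0.525, limma) and turned to -0.019 without 53 and to -0.010 without 54, so its sign rests on single libraries.

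The Robo receptors showed no difference between the genotypes beyond the spread of the libraries. *Robo1* (ENSMUSG00000022883.10, chromosome 16, 72308306 to 73046095, forward strand), the widely expressed receptor of the family, had 5.85, 5.78, 6.27 and 5.77 in the controls against 5.84, 6.06, 6.30 and 5.86 in the mutants. The ranges nearly coincided, and 509 to 820 reads lay behind each value. The log2 fold change was 0.10 (SE 0.17, 95% interval -0.26 to 0.46; p = 0.558, adjusted p = 0.995, limma; exact permutation p = 0.486). With 1 library left out it ran from 0.0051 without *Tgfbr2cko* 55 to 0.22 without Osterix-Cre 51, the highest library of each genotype.

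*Robo2* (ENSMUSG00000052516.17, chromosome 16, 73891839 to 74411825, reverse strand) is a receptor used by many sensory axons. It was read at 3.40, 2.76, 3.27 and 3.83 in the controls against 2.82, 3.02, 3.60 and 4.48 in the mutants. The genotypes overlapped, and the highest value was that of the library labelled *Tgfbr2cko* 56, with 301 reads against 62 to 145 in the other 7. The log2 fold change of 0.16 (SE 0.35, 95% interval -0.58 to 0.91; p = 0.643, adjusted p = 0.998, limma; exact permutation p = 0.714) became -0.17 without that library and -0.020 without Osterix-Cre 50. The library carried the enamel transcripts described above, and their part in the *Robo2* value was not tested.

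*Robo4* (ENSMUSG00000032125.20, chromosome 9, 37401897 to 37415115, forward strand) is the Robo of endothelial cells. Its values of 3.70, 4.66, 3.73 and 4.23 in the controls against 4.45, 3.65, 3.96 and 3.65 in the mutants overlapped almost fully. The log2 fold change was -0.15 (SE 0.26, 95% interval -0.71 to 0.41; p = 0.576, adjusted p = 0.998, limma; exact permutation p = 0.629), from 126 to 243 reads. Without Osterix-Cre 50, the highest library, it was 0.044, without the library labelled *Tgfbr2cko* 56 it was -0.056, and without *Tgfbr2cko* 53 it was -0.32.

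*Unc5b* (ENSMUSG00000020099.8, chromosome 10, 60762593 to 60831581, reverse strand) is a netrin receptor that mediates repulsion and, on endothelial cells, restrains vessel sprouting. It had log2 values of 8.42, 8.23, 8.51 and 8.60 in the controls against 7.86, 8.22, 8.21 and 7.96 in the mutants, from 2062 to 3979 reads. Every mutant library was below every control, but the closest pair, Osterix-Cre 50 and *Tgfbr2cko* 54, differed by little, at 8.23 and 8.22. The means were 8.44 ± 0.16 and 8.06 ± 0.18 (SD, n = 4 each), a log2 fold change of -0.38 (SE 0.15, 95% interval -0.70 to -0.05), or 0.771 of the control level with an interval of 0.616 to 0.964.

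The unadjusted p of *Unc5b* was 0.0261 and the adjusted p was 0.438 (limma), with an adjusted p of 0.354 to 0.733 over the alternatives. The exact permutation p of 0.0286 is the smallest that the 70 arrangements can give. The unadjusted p rose above 0.05 without Osterix-Cre 51 (0.0656), without Osterix-Cre 52 (0.0736), without *Tgfbr2cko* 53 (0.0829) and after quantile normalization (0.0549). The genotypes overlapped after quantile normalization and when library medians were set equal.

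*Unc5c* (ENSMUSG00000059921.15, chromosome 3, 141465216 to 141834924, forward strand) encodes a second netrin receptor of the repulsive kind. The controls lay between 6.35 and 6.61, at 6.61, 6.57, 6.38 and 6.35, and the mutants spread from 6.96 in library 53 through 6.33 and 6.23 to 5.34 in the library labelled *Tgfbr2cko* 56. The SD was 0.13 in the controls against 0.67 in the mutants (n = 4 each), and 3 mutants were below all controls while 1 was above them. The log2 fold change was -0.27 (SE 0.26, 95% interval -0.83 to 0.30; p = 0.324, adjusted p = 0.955, limma; exact permutation p = 0.514). Both extreme libraries decided it: it was -0.51 without 53 (unadjusted p under 0.05, adjusted p = 0.387, limma) and 0.025 without 56 (adjusted p = 0.993, limma). The exons of *Unc5c* share 118 bases, 0.617% of their length, with the antisense gene *Gm15688*, and whether the counting used the strand is not given in the sources used here.

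*Neo1* (ENSMUSG00000032340.8, chromosome 9, 58874687 to 59036441, reverse strand) encodes neogenin, a receptor for netrins and for repulsive guidance molecules. The controls were nearly equal, at 6.74, 6.85, 6.75 and 6.77, and the mutants had 7.32, 7.07, 7.15 and 6.55, from 1024 to 1645 reads. As for *Slit3*, mutants 53, 54 and 55 were above all controls and the library labelled *Tgfbr2cko* 56 was below them. The log2 fold change was 0.24 (SE 0.16, 95% interval -0.11 to 0.60; p = 0.160, adjusted p = 0.841, limma; exact permutation p = 0.143). It was 0.40 without library 56 (adjusted p = 0.219), 0.33 with limma's library weights (adjusted p = 0.314), which count that library least, and 0.27 after quantile normalization (adjusted p = 0.482, limma). In each of these 3 settings its unadjusted p was under 0.05. Without *Tgfbr2cko* 53, the highest mutant, it was 0.15 (adjusted p = 0.856, limma). Without the library labelled *Tgfbr2cko* 56, 2 of the 8 genes, *Unc5b* and *Neo1*, had an unadjusted p under 0.05, beside 9.58% of all genes, and none had an adjusted p under 0.05, against 1.22% of all genes.

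**Figure D2:**
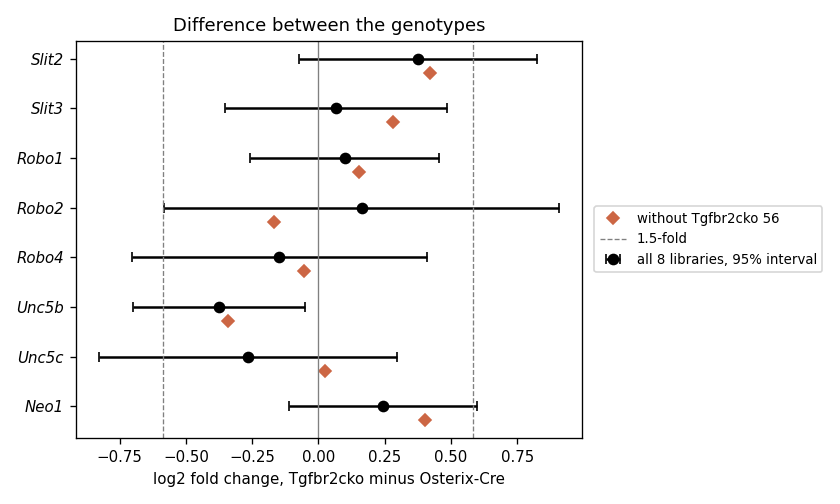
Log2 fold change of each guidance gene, Tgfbr2cko minus Osterix-Cre (horizontal axis), with its 95% interval from limma in all 8 libraries (black) and the value without the library labelled Tgfbr2cko 56 (diamonds); dashed lines mark 1.5-fold. Unc5b, at -0.38, is the gene whose interval excludes 0, and Robo2 and Unc5c lie on the other side of 0 without that library.

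In reads per kilobase of exon, scaled to the counted reads of the library (RPKM), a scale on which genes of different length can be set side by side, *Unc5b* stood first in the controls with a level of 55.7 ± 6.04 RPKM (SD, n = 4). This level lay at the 92.1 percentile of all genes. *Neo1* followed at 12.6 ± 0.435 RPKM and *Slit3* at 10.9 ± 0.755 RPKM, and these neighbours were separated in all control libraries. *Unc5c* at 4.67 RPKM, *Robo1* at 3.70 RPKM and *Robo4* at 3.30 RPKM came next, each overlapping its neighbour in this order, and *Robo2* at 0.603 RPKM and *Slit2* at 0.591 RPKM were last and overlapped. The Slit ligand of the pulp with the higher level was thus *Slit3*, and the Unc5 receptor with the higher level was *Unc5b*. With the length of the longest transcript in place of all exons, 6 of 8 genes kept their rank, and *Slit2* and *Robo2* changed places at 1.51 and 1.19 RPKM.

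**Figure D3:**
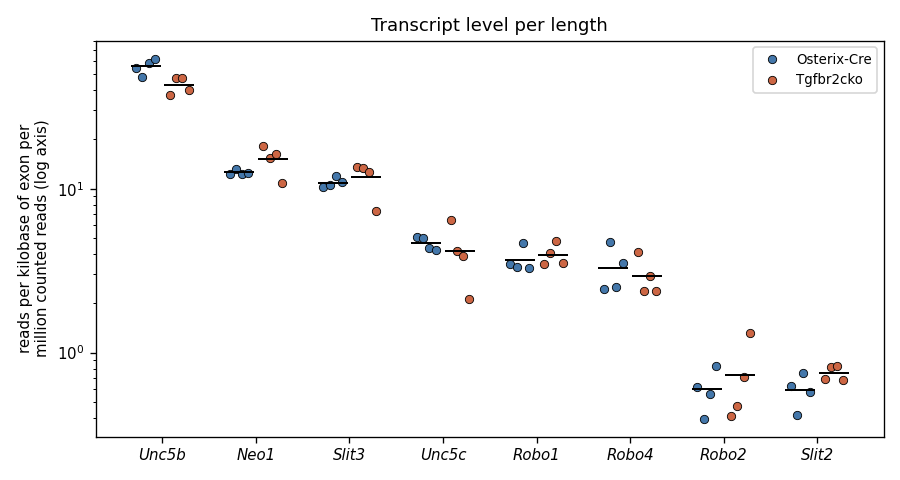
Level of each guidance gene in RPKM (log axis), with 1 point per library and lines for the genotype means. Unc5b lies above all others in both genotypes, with means of 55.7 and 43.0, and Slit2 and Robo2 lie at or below 1.31 in every library.

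Of 55 further genes of these pathways, 44 were analysed and 11 were not, among them *Dcc*, *Slit1* and *Robo3*. The mean was higher in *Tgfbr2cko* for 25 and lower for 19, with a median log2 fold change of 0.0086. An unadjusted p under 0.05 was found for 1 of the 44, *Srgap2*, which was lower, beside 8.38% of all genes. None of the 44 had an adjusted p under 0.05, and none was altered by the thresholds of the study (limma-trend).

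*Srgap2*, a GTPase-activating protein that binds Robo receptors and acts on Rac, is named here after its values were seen because its change was under 1.5-fold. It had 5.54, 5.40, 5.81 and 5.57 in the controls against 5.29, 5.01, 5.15 and 4.69 in the mutants. The genotypes did not overlap, and the log2 fold change was -0.54 (SE 0.17, p = 0.00679, adjusted p = 0.222, limma; exact permutation p = 0.0286). Its unadjusted p stayed under 0.05 in all 17 alternatives. The other Robo-binding GTPase-activating proteins had log2 fold changes of 0.46 for *Srgap1* (exact permutation p = 0.143), 0.14 for *Srgap3* (exact permutation p = 0.486) and 0.32 for *Arhgap39* (exact permutation p = 0.257), none with an unadjusted limma p under 0.05.

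None of the 7 analysed genes in a group of netrin relatives, further ligands and partners of Unc5 or neogenin had an unadjusted p under 0.05. This group includes the netrin relatives *Ntn5* and *Ntng1* and the Unc5-binding FLRT proteins, and its values ran from -0.25 for *Ntng1* to 0.47 for *Flrt3* (exact permutation p = 0.171). The same held for the 6 heparan sulfate and matrix co-receptors and for the 16 adaptors, kinases and GTPases, whose median log2 fold changes were -0.00095 and 0.011. None of the 7 actin regulators reported had an unadjusted p under 0.05, with a median of -0.0053. The highest levels of the 44 in the controls were those of *Cdc42* at 206 RPKM, the syndecans *Sdc4* at 102 RPKM, *Sdc1* at 100.2 RPKM and *Sdc3* at 77.0 RPKM, the kinase *Pak1* at 58.4 RPKM and the phosphatidylinositol transfer protein *Pitpna* at 49.2 RPKM. Without the library labelled *Tgfbr2cko* 56, unadjusted p-values under 0.05 were found for 5 of the 44, with 4 higher beside 5.43% of all genes and 1 lower beside 4.15%. Named after their values were seen, the 4 were *Flrt3* (log2 fold change 0.67, the only one of the 5 past 1.5-fold), *Srgap1* (0.55), *Plxna1* (0.39), a semaphorin receptor, and *Vasp* (0.37), an actin regulator, and the lower gene was *Srgap2* (-0.43); their lowest adjusted p was 0.171 (limma).

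**Figure D4:**
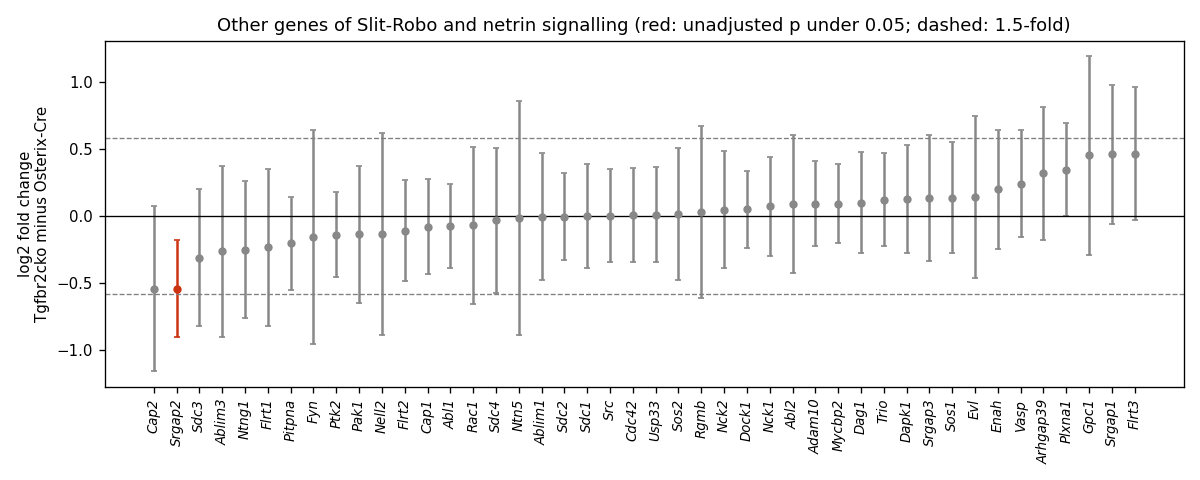
Log2 fold change, Tgfbr2cko minus Osterix-Cre (vertical axis), of the 44 further genes of Slit-Robo and netrin signalling, in order of size, with 95% intervals from limma; red marks an unadjusted p under 0.05 and dashed lines 1.5-fold. The red gene, Srgap2 at -0.54, is lower in the mutants, and the values run from -0.55 for Cap2 to 0.47 for Flrt3.

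*Unc5b* and *Robo4* are also genes of endothelial cells, whose markers had lower means in the mutants. All 12 endothelial markers were analysed and none was at 0 in any library, and their mean was lower in *Tgfbr2cko* for each of the 12. An unadjusted p under 0.05 with lower values was found for 5, beside 5.08% of all genes, and in all 5 the genotypes did not overlap, beside 3.14% of all genes with the mutants lower: *Tek* (log2 fold change -0.64), *Emcn* (-0.42), *Cldn5* (-1.28), *Sox17* (-1.04) and *Sox18* (-0.46), and *Cldn5* had an adjusted p of 0.00853 (limma). Their summed level was 467, 624, 508 and 539 CPM in Osterix-Cre 49 to 52, against 395, 369, 462 and 388 CPM in *Tgfbr2cko* 53 to 56, so every mutant sum was below every control sum. Within the genotypes, *Unc5b* did not follow the order of these sums. Osterix-Cre 50 had the highest sum and the lowest *Unc5b* value of the controls, at 8.23. *Tgfbr2cko* 54 had the lowest sum and the highest *Unc5b* value of the mutants, at 8.22, while *Tgfbr2cko* 55, with the highest mutant sum, was close to it at 8.21. The part of endothelial cells in the *Unc5b* difference was not tested. In bulk tissue, fewer cells of a type and less RNA per cell cannot be told apart. The paper labelled vessels of first molars for CD31 at P7 and at a later stage, and reported no significant difference between the genotypes. *Pecam1*, the gene of CD31, had a log2 fold change of -0.28 here, and the genotypes overlapped. Whether endothelial cells were fewer in the sequenced samples was not tested.

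Other marker lists did not all lie in the same direction. Of the 7 pericyte and smooth muscle markers analysed, the mean was lower for 6, and 3 were lower with an unadjusted p under 0.05, beside 5.08% of all genes: *Rgs5* (log2 fold change -0.83, adjusted p = 0.0212, limma), *Pdgfrb* (-0.69) and *Notch3* (-0.49). Their summed level was 652 to 939 CPM in the controls against 438 to 852 CPM in the mutants. The lowest sum was that of the library labelled *Tgfbr2cko* 56, without which the mutants began at 640 CPM and the mean was lower for 4 of the 7. *Notch3*, at -0.33, then no longer had an unadjusted p under 0.05, while another marker, at -1.25, gained one. The number lower at that threshold thus stayed at 3, beside 4.15% of all genes.

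All 7 macrophage markers had a lower mean in the mutants, with a median log2 fold change of -0.50, and 3 were lower with an unadjusted p under 0.05, beside 5.08% of all genes: *Mrc1* (-0.99), *Cd68* (-0.70) and *Adgre1* (-0.50). Without the library labelled *Tgfbr2cko* 56 the mean was lower for 6 of the 7, the median was -0.25 and 1, *Mrc1* (-0.79), had an unadjusted p under 0.05, beside 4.15% of all genes with lower values. The macrophage sum was 700 to 1029 CPM in the controls and 418 to 893 CPM in the mutants, or 667 to 893 CPM without that library. Of the 7 odontoblast markers *Nes* (-0.81) and *Bglap* (-0.72) were lower and *Ibsp* (1.24) was higher at an unadjusted p under 0.05, a threshold that 8.38% of all genes passed in either direction. Without the library labelled *Tgfbr2cko* 56 these values were -0.68, -0.56 and 0.77, and *Bglap* no longer passed. None of the 7 pulp mesenchyme markers passed that threshold in all 8 libraries, and the mean was higher for 4 of them; without that library 1 was higher with an unadjusted p under 0.05, beside 5.43% of all genes, and the mean was higher for 5. Their summed level was 2135 CPM in that library and 3523 to 4062 CPM in the other mutants. The part of these cells in the values of the guidance genes was not tested.

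The 10 dental epithelium markers summed to 3734 to 22893 CPM in the controls, 3927 to 29663 CPM in mutants 53 to 55 and 194883 CPM in the library labelled *Tgfbr2cko* 56. The mean was higher in the mutants for 6 of these markers. Of the 10, 2 had an unadjusted p under 0.05, beside 8.38% of all genes: *Klk4* was lower (-2.71, adjusted p = 0.000136, limma), and *Cdh1* was higher (1.15), a call that was lost without the library labelled *Tgfbr2cko* 56 (0.55), whereas *Klk4* was then at -2.89. *Klk4* was below every control in each mutant library, the one labelled *Tgfbr2cko* 56 included, so it did not follow the sum of its list. Markers of axons and of Schwann cells were thinly covered, with 1 of 9 (*Tubb3*) and 3 of 8 genes analysed, of which *Mbp*, a myelin protein, was higher (0.57), 1 of the 3 at an unadjusted p under 0.05 beside the same 8.38%. *Tubb3*, a tubulin of neurons, ran from 40.9 to 69.3 CPM in the controls and from 35.3 to 126.5 CPM in the mutants, with the highest value in the library labelled *Tgfbr2cko* 56.

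**Figure D5:**
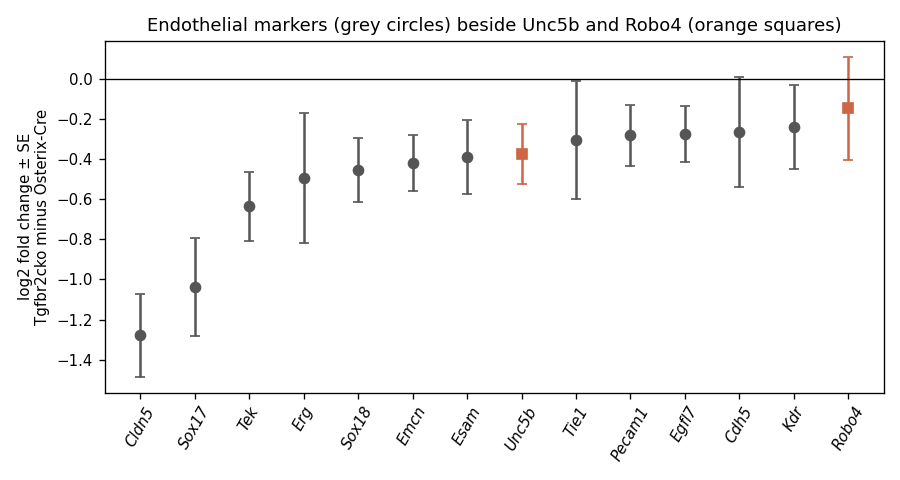
Log2 fold change ± SE from limma, Tgfbr2cko minus Osterix-Cre (vertical axis), of the 12 endothelial markers (grey circles), Unc5b and Robo4 (orange squares), in order of size. All 14 points lie below 0; Unc5b at -0.38 lies among the markers and Robo4 at -0.15 lies nearest to 0.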

How the data were processed

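DP RNA of 4 Osterix-Cre and 4 *Tgfbr2cko* samples was amplified from a low input and sequenced by the authors. The submitters' processing notes name fastp 0.21.0, HISAT2 2.1.0, featureCounts of Subread 2.0.1, limma and GRCm38.p5. The deposited log2 values are voom values, made by adding 0.5 to each read count, scaling to the library total as CPM and taking log2, for genes the authors kept as reliably quantifiable. All 97184 values gave whole reads (tolerance 0.001), and these reads were used for totals and for levels per kilobase; intervals cover the spread of libraries, and amplified reads that carry no molecular identifier cannot be counted as single molecules.

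Genes were placed with GENCODE M21 (12144 identifiers matched, on GRCm38). The genotypes were compared on the deposited log2 values with limma 3.58.1 in R 4.3.3 (two-sided, intensity trend, all 8 libraries) and, for single genes, with an exact two-sided permutation test (70 arrangements). The fit was tested on simulated data. Levels per kilobase used the union of exons. Alternatives changed the weights, scaling, pseudocount, filter and libraries. Named are all guidance genes, further pathway genes that were altered or had the 6 highest levels, marker genes with an unadjusted p under 0.05, the 3 genes most like each guidance gene, and *Tgfbr2*; pathway and marker genes named beyond these were chosen after their values were seen. The guidance genes, pathway genes and markers were chosen with earlier results of these data known. Of the listed pathway genes, 1 is not reported here and is left out of the counts of that list, but it stays in the fit over all genes. Promoters are from RefSeq, GRCm38.p6. Figures used matplotlib 3.10.9 in Python 3.11.15.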

Additional observations from a re-analysis of the deposited data

Results flagged for a closer look

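Among the 16 sets of 4 libraries formed by 8 guidance genes and the 2 genotypes, 2 held a library far from the other 3 by Dixon's ratio at the 95% critical value for 4 libraries; chance flags about 1 in 20 such sets. The library labelled *Tgfbr2cko* 56 was the lowest of the mutants for *Slit3*, at a log2 value of 5.47, with a ratio of 0.880. Osterix-Cre 51 was the highest of the controls for *Robo1*, at 6.27, with a ratio of 0.839.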

How the results depend on the processing

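Over 17 alternatives, 121 of 136 log2 fold changes of the 8 guidance genes kept their direction and their side of an unadjusted p of 0.05, 6 reversed, 5 passed the threshold and 4 lost it. None had an adjusted p under 0.05 or was altered in any of them, nor at 2-fold. The reversals, for *Slit3*, *Robo2*, *Robo4* and *Unc5c*, all came from leaving out 1 library, where the log2 fold change ran from 0.22 to 0.50 for *Slit2*, from 0.15 to 0.40 for *Neo1*, from 0.0051 to 0.22 for *Robo1*, from -0.019 to 0.28 for *Slit3*, from -0.17 to 0.38 for *Robo2*, from -0.32 to 0.044 for *Robo4* and from -0.51 to 0.025 for *Unc5c*. The number of guidance genes with an unadjusted p under 0.05 was 2 with library weights and 0 to 2 with 1 library left out, being 0 without Osterix-Cre 52 and 2 without *Tgfbr2cko* 56. The number without overlap was 0 after median centring and 0 after quantile normalization. The further pathway genes altered numbered 0 to 2 with 1 library left out, with 1 without Osterix-Cre 49 (*Srgap1*), Osterix-Cre 50 (*Srgap2*) or *Tgfbr2cko* 56 (*Flrt3*) and 2 without *Tgfbr2cko* 53 (*Gpc1* and *Srgap2*), and 0 under the other alternatives. The scaling alternatives moved the median of all genes by under 0.1 on the log2 scale. The cause of these shifts was not tested. No paired analysis was possible because the genotypes share only 1 of the unexplained title numbers, 2; a block on these numbers would rest the genotype difference on the 3 libraries that carry it, Osterix-Cre 51 and *Tgfbr2cko* 54 and 55, and was not run. Depth limits *Slit2*, *Robo2* and *Robo4* most, with 62 to 301 reads per library.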

Other observations

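Likeness between genes was measured as Pearson's r over the 8 libraries, after the mean of each genotype was taken from the log2 values, and is given as a description; the points share their libraries and depth, and the highest r among all genes is high by selection. For *Unc5b* the most similar genes were *Atp2b1* (r = 0.982), *Ackr4* (0.981) and *Mertk* (0.977), and for *Robo4* they were *Ece1* (0.971), *Klhl8* (0.971) and *Acot6* (0.958). For *Slit2* they were *Zfx* (0.967), *Fat1* (0.965) and *Dlx1* (0.945). For *Robo1* they were *Smg5* (0.971), *Pank4* (0.962) and *Zranb3* (0.957), and for *Robo2* they were *Cyb561* (0.979), *Slc41a2* (0.976) and *Steap1* (0.971). For *Slit3* they were *Trappc9* (0.988), *Tmem39a* (0.986) and *Kcnh2* (0.985), of which *Trappc9* and *Tmem39a* had an r of 0.781 and 0.732 without the library labelled *Tgfbr2cko* 56. For *Unc5c* they were *Txnl4b* (0.992), *Commd8* (0.990) and *Bfar* (0.990), and for *Neo1* *Rab39b* (0.992), *Tmsb15b1* (0.990) and *Cybrd1* (0.989). Among the guidance genes the highest r was that of *Unc5c* and *Neo1*, at 0.946 (0.794 without that library), followed by *Slit3* and *Neo1*, at 0.914 (0.056 without it), so that the second rests on that library, where both were lowest among the mutants.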
